A study of Rattus norvegicus with 44 samples.

Results

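The comparison described here set the 4 arrays of H4-II-E-C3 cells exposed to 10 µM chromium against 8 arrays of unexposed control cells, 12 of the 44 arrays of the series, over all genes. H4-II-E-C3 is a hepatoma line of the rat that still makes many proteins of the liver cell. Chromium was given as Na2Cr2O7, in which the metal is hexavalent, at 0.275, 1 and 10 µM for 24 h. The control flasks had no metal, and every flask, exposed or not, spent these 24 h in medium without serum. The concentrations were set from a viability assay, with 10 µM at a level that killed part of the cells. Nickel at 400 µM (NiCl2) and cadmium at 1.2 µM (CdCl2), the highest concentrations of the other metals, are used only where chromium differed from them. Each condition has 4 biological replicates of this 1 line, and each replicate number holds 2 control arrays, titled Control 1 and Control 2. Whether those 2 come from separate flasks is not given in the sources used here, so they were averaged. All levels are RMA values on the log2 scale, on which a difference of 1 is a 2-fold change.

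The arrays of each condition were chosen by an order of the sample titles and not by the label attached to each array. The titles were listed in series order, the 4 that name a repeated array were moved to the end, and the titles were then given to the data columns 1 by 1. This order was checked against condition means published with these data for 992 probe sets. In the displaced order the means of the 9 exposures differed from the published ones by 7.50e-06 at most, which is rounding. With the labels as attached they differed by a median of 0.164 and by up to 4.32. The move touches 2 of the 4 chromium 10 µM arrays (replicates 3 and 4) and 2 of the 8 control arrays (1 each in replicates 3 and 4), while in replicates 1 and 2 both orders give the same chromium 10 µM and control arrays. Counts over replicates 1 and 2 alone are therefore given beside the main ones. The 992 probe sets had been selected on these same arrays for their change, and they served to pick the order. Members among them are given as levels and differences with no p. Tests are counted over the probe sets outside that list, with limma's adjusted p over all 15212 probe sets tested. A probe set was tested where all arrays of control or of at least 1 chromium concentration lay above 5.97, the median of all values.

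Hexavalent chromium enters cells as chromate, which resembles sulfate and uses anion carriers, and inside the cell it is reduced to the trivalent form, which binds DNA and protein. Cells copy their DNA once per cycle: the origin recognition complex, with Cdc6 and Cdt1, loads the minichromosome maintenance (MCM) helicase onto origins, and the E2F factors switch on these genes as cells pass from G1 to S phase. Metals that displace zinc act on the factor MTF1, which binds metal response elements in metallothionein promoters, and the factor NRF2 switches on genes against oxidants through antioxidant response elements.

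The promoters of Mcm2, Mcm5, Uhrf1, Zfp367 and of Mt2A, a metallothionein, are shown because each holds more than 1 match of such a site, and all 5 genes were higher at the strict threshold used below. They were chosen with their levels known. Each line holds the 250 bases before the start of the gene in RefSeq (rat build GRCr8), 5′ to 3′ on the strand of the gene. Capitals mark the E2F site (TTTGGCGC, TTTCCCGC, TTTGCCGC or TTTCGCGC on either strand) in the first 4 and the core of the metal response element (TGCACNC or TGCGCNC on either strand) in Mt2A. Mcm2 (chr4:122918095-122918344, minus strand) and Mcm5 (chr19:13488563-13488812, plus strand) encode subunits of the helicase. Uhrf1 (chr9:1222936-1223185, plus strand) encodes a factor that brings the DNA methylase to newly copied DNA, and Zfp367 (chr17:970646-970895, plus strand) a zinc finger protein. Mt2A lies at chr19:10838709-10838958 on the minus strand.
Mcm2: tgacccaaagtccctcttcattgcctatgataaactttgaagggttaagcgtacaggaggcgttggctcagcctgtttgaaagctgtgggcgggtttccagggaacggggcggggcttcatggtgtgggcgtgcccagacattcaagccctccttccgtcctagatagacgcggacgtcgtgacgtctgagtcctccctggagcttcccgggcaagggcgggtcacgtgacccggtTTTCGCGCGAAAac
Mcm5: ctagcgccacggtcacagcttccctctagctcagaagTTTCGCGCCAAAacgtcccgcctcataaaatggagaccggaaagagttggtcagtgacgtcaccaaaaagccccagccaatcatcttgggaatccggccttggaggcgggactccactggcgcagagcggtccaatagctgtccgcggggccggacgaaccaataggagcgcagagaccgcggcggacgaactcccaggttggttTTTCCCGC
Uhrf1: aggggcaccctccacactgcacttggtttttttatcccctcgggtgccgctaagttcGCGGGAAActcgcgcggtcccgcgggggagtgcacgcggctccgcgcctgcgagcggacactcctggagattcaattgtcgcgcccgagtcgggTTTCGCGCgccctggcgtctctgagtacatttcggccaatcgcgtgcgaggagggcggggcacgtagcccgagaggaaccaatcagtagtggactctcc
Zfp367: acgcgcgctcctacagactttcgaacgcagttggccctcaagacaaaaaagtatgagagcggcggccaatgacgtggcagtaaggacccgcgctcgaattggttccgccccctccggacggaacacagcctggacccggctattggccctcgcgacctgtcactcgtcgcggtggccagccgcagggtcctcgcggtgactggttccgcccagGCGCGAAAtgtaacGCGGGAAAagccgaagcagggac
Mt2A: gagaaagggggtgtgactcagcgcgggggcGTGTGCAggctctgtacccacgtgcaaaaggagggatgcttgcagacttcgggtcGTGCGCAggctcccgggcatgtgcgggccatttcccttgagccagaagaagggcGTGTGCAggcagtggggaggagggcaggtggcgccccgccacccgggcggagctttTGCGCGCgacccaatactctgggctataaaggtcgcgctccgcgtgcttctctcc
In Mcm2 the sites start 14 and 10 bases before the gene and overlap as 1 palindrome. Uhrf1 held sites 193 and 99 bases before its start, and Zfp367 37 and 23. In Mt2A the 4 cores start 220, 165, 111 and 55 bases before the gene. Over windows of 300 bases, which add the first 50 bases of the gene, an E2F site stood in 26 of 56 promoters of the replication genes listed below (46.4%), in 716 of all 33469 promoters (2.14%) and in 362 of the 8268 promoters of genes with a tested probe set (4.38%). The share was 24.8% (31 of 125) among genes higher at the strict threshold used below and 3.14% (5 of 159) among those lower. Replication genes such as Mcm2 and Mcm5 count in the share of the higher genes too, and the share without them was not computed. The metal response core, a shorter string, stood in 44.6% of the replication promoters, in 36.4% of those of genes with a tested probe set and in 24.2% of all promoters. The antioxidant core (TGACNNNGC) stood in 30.3% of those of NRF2 targets, in 14.6% of those of genes with a tested probe set and in 12.1% of all promoters. E2F and metal response matches shared bases in 8 of the 256 promoters that held both. These are matches of letters and were not tested as binding sites.

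Arrays of the series had the same mean (6.49) and medians between 5.93 and 6.0, as RMA makes them. R2 was taken over the probe sets tested, as the median of an array with the others of its group. It was 0.9626 to 0.9739 for the chromium 10 µM arrays and 0.964 to 0.9767 for the control arrays. Against controls, chromium 10 µM arrays reached only 0.9031 to 0.9332. Arrays of the same replicate number deviated together (r of 0.64, 0.45, 0.57 and 0.6 between chromium 10 µM and control), so the number was fitted as a block. Of 9 hepatocyte markers on the array, 8 were above the filter level on all 12 arrays, with a summed level of 90.7 to 92.6 in chromium 10 µM and 96.1 to 98.0 in controls. Alb stood at 14.48 to 14.52 in chromium 10 µM and 14.38 to 14.62 in controls, and Apoa1 was near background in both. None of 5 endothelial and none of 5 cholangiocyte markers was above the level on any of the 12 arrays, nor were 6 of 8 fibroblast and 6 of 7 leukocyte markers, Ptprc and Cd68 among them. Lyz2, the 1 leukocyte marker that was tested, stood at 7.95 to 8.18 in chromium 10 µM and at 8.4 to 8.8 in controls. In RNA from whole flasks, fewer cells of a kind and less RNA per cell cannot be told apart, nor can more cells in S phase and more RNA per cell.

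Strong differences ran in both directions. At a strict threshold (adjusted p of at most 0.001 and at least 1.8-fold), 182 of 15212 probe sets were higher (1.20%) and 252 lower (1.66%) than in controls, which name 140 and 178 genes. Of these 434, 426 belong to the published list, so the count describes it and does not test it. The largest differences were on the lower side: 25 of the probe sets were more than 3-fold lower and 7 more than 4-fold lower, against 6 and 1 higher. For 23 of the 434 the arrays of the groups overlapped. Outside the list, 3312 of 14342 probe sets rose (23.1%) and 2587 fell (18.0%) with a limma adjusted p below 0.05, and these shares are the background for each count of members below. The background is not matched to the members: it holds every probe set, and of the 15212 tested 11995 name 1 gene. A list member is the 1 probe set of its gene with the highest mean. The median change over all probe sets was 0.02. Of the 3312 that rose, 219 did not have all controls above the filter level, and of the 2587 that fell 256 did not have all chromium 10 µM arrays above it. With a filter on the mean of all arrays, chosen after seeing the data, 3256 of 14620 rose (22.3%) and 2630 fell (18%). The counts of lists below then changed for licensing (7 of 9 rose), the fork (13 of 20) and the damage checkpoint (11 of 16), and nucleotide excision repair kept 7 of 19. In replicates 1 and 2 alone the strict counts were 100 higher and 177 lower, in replicates 3 and 4 alone 0 and 1, and with the labels as attached 0 and 0. Outside the list, 8 probe sets passed the strict threshold. Klf10, a zinc finger factor of the TGF-beta response, rose by 1.29 ± 0.08 (SE, limma, adjusted p = 1.6e-07), and not all its controls were above the filter level. Aunip, a partner of Aurora kinase A, stood at 6.18, 6.08, 6.90 and 6.35 in chromium 10 µM, against 4.82, 5.21 and 5.50 (lowest, median, highest) in controls. It passed the filter only through the chromium arrays and is given with no p, with its controls near background. The third that rose has no gene name in the annotation used. The 5 that fell name Veph1 (-1.02), Hpd (-1.01), Adhfe1 (-0.96), Cp (-0.88) and Cdk14 (-0.86), of which Hpd, an enzyme of tyrosine breakdown, had overlapping arrays.

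Cdt1, the loading factor of the MCM helicase, was among the largest differences upward. It differed by 1.89, where the highest over all probe sets tested was 2.01. It stood at 8.70, 8.64, 9.04 and 8.80 in chromium 10 µM replicates 1 to 4, against 6.51, 7.02 and 7.13 (lowest, median, highest) in the 8 controls, 3.69-fold higher. All 4 chromium arrays lay more than 1 unit above the highest control. Pcna, the sliding clamp of the DNA polymerases, stood at 12.56, 12.33, 12.73 and 12.56 in chromium 10 µM, against 10.67, 11.35 and 11.54 in controls, a log2 change of 1.28 ± 0.11. Ccne2, a cyclin that starts S phase, stood at 9.08, 8.95, 9.27 and 9.09 in chromium 10 µM, against 6.93, 7.70 and 7.93 in controls, a log2 change of 1.49 ± 0.12. Both genes were without overlap, and replicate 3 was the highest chromium array for all 3 genes. Klf5, a factor of growing epithelial cells, stood at 7.84, 7.36, 7.89 and 7.66 in chromium 10 µM, against 5.70, 5.98 and 6.28 in controls, and its other probe set differed by 1.54 as this one did by 1.70. Ugt2b7, a glucuronide transferase of a family of close copies that a probe set may not tell apart, stood at 11.95, 11.78, 11.22 and 11.30 in chromium 10 µM, against 8.07, 9.84 and 11.11 in controls. Its control arrays spread over 3 units, and the lowest chromium array was only just above the highest control. Dtl (1.44), which marks Cdt1 for degradation, Zfp367 (1.48), Uhrf1 (1.36) and the factor Mybl1 (1.53) were also among the 15 largest differences upward.

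**Figure D1:**
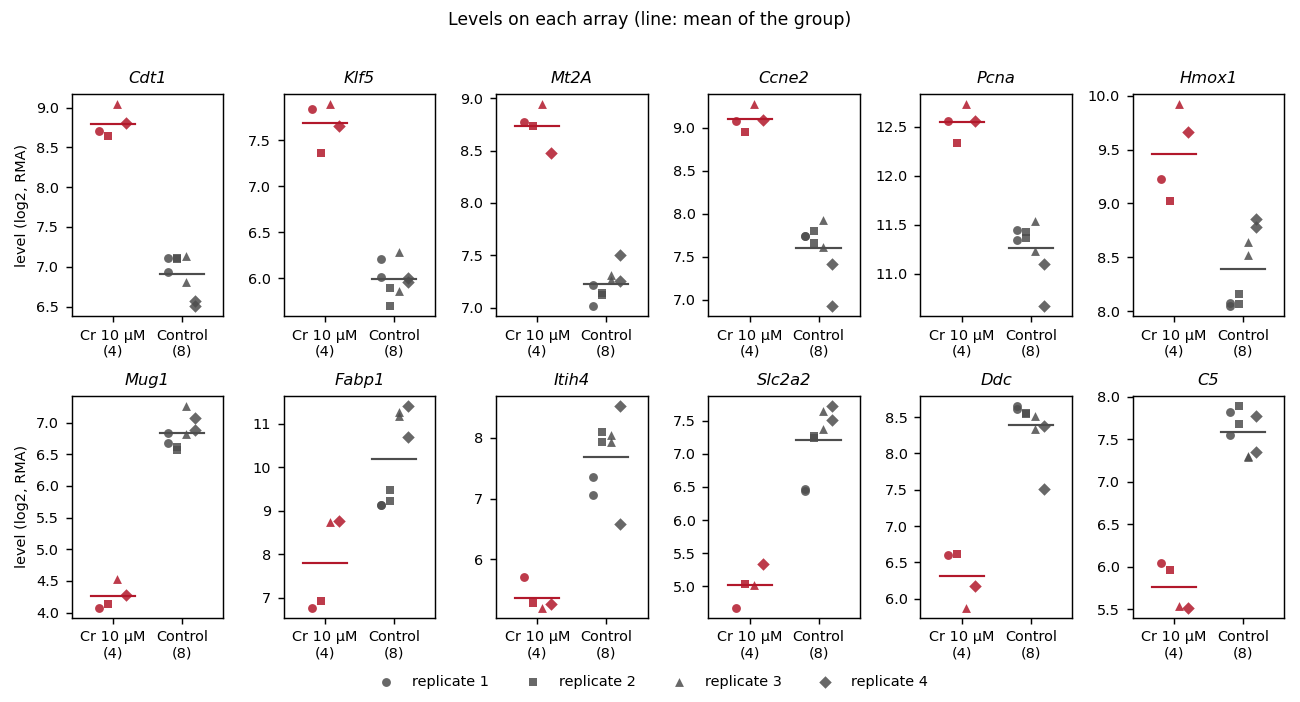
Level (log2, RMA) of 12 named genes on each array, with the 4 chromium 10 µM arrays on the left and the 8 control arrays on the right of each panel; the symbol gives the replicate number and the line the mean of the group. In all 12 panels the groups do not overlap, with Cdt1 at 8.64 to 9.04 in chromium 10 µM and 6.51 to 7.13 in controls and Mug1 at 4.08 to 4.53 and 6.56 to 7.26.

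The machinery of DNA replication was higher nearly throughout. Of 28 listed genes for licensing and the helicase, 22 were tested and 12 are in the published list, where all 12 were above controls, by 0.87 to 1.89. The 6 subunits of the MCM ring differed by 1.04 (Mcm2), 1.08 (Mcm3), 0.87 (Mcm4), 1.09 (Mcm5), 1.33 (Mcm6) and 1.00 (Mcm7). Of the 10 tested outside the list 8 rose and 1 fell (80% and 10%, against 23.1% and 18.0% of all probe sets), and in replicates 1 and 2 alone it was again 8 and 1. Gins4, a subunit of the active helicase, rose by 0.80 (limma, adjusted p = 5.6e-06). Recql4, a helicase of origin firing, stood 0.78 above controls that lay at 5.44 to 5.79, below the filter level, and is given with no p. Mcm10 rose by 0.60 (limma, adjusted p = 3.4e-05) and Cdc45 by 0.54 (limma, adjusted p = 0.00022). The origin recognition complex was uneven: Orc1 stood 1.32 and Orc6 1.06 above controls, Orc2 and Orc4 each rose by 0.44, Orc5 was at 0.00, and Orc3 fell by 0.57 (limma, adjusted p = 8.3e-05).

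Of 34 listed genes of the replication fork 31 were tested, and the 10 in the published list were 0.86 to 1.28 above controls. Of the other 21, 14 rose and 1 fell (66.7% and 4.76%), and in replicates 1 and 2 alone 10 rose and 1 fell. Rpa2, a subunit of the protein that coats single-stranded DNA, stood at 9.02, 8.75, 9.16 and 8.84 in chromium 10 µM, against 7.56, 7.83 and 8.07 in controls. Its large partner Rpa1 rose by 0.84 (limma, adjusted p = 1.3e-06) and the small one, Rpa3, by 0.40 (limma, adjusted p = 0.0021). All 5 subunits of the clamp loader rose, from Rfc1 (0.19) over Rfc5 (0.53), Rfc4 (0.73) and Rfc2 (0.79) to Rfc3 (0.83). The catalytic and accessory subunits Pola2, Pold1, Pold2, Pole and Pole2 were between 0.90 and 1.18 above controls, whereas Pola1, the catalytic subunit of polymerase alpha, differed by 0.11 (limma, adjusted p = 0.36) and Pold4, the smallest subunit of polymerase delta, fell by 0.76 (limma, adjusted p = 5e-05). Lig1 and Fen1, which join and trim the fragments of the lagging strand, were both 0.86 above controls. Over both lists, 46 of 53 tested genes were above controls in all 4 replicates and 4 were below.

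**Figure D2:**
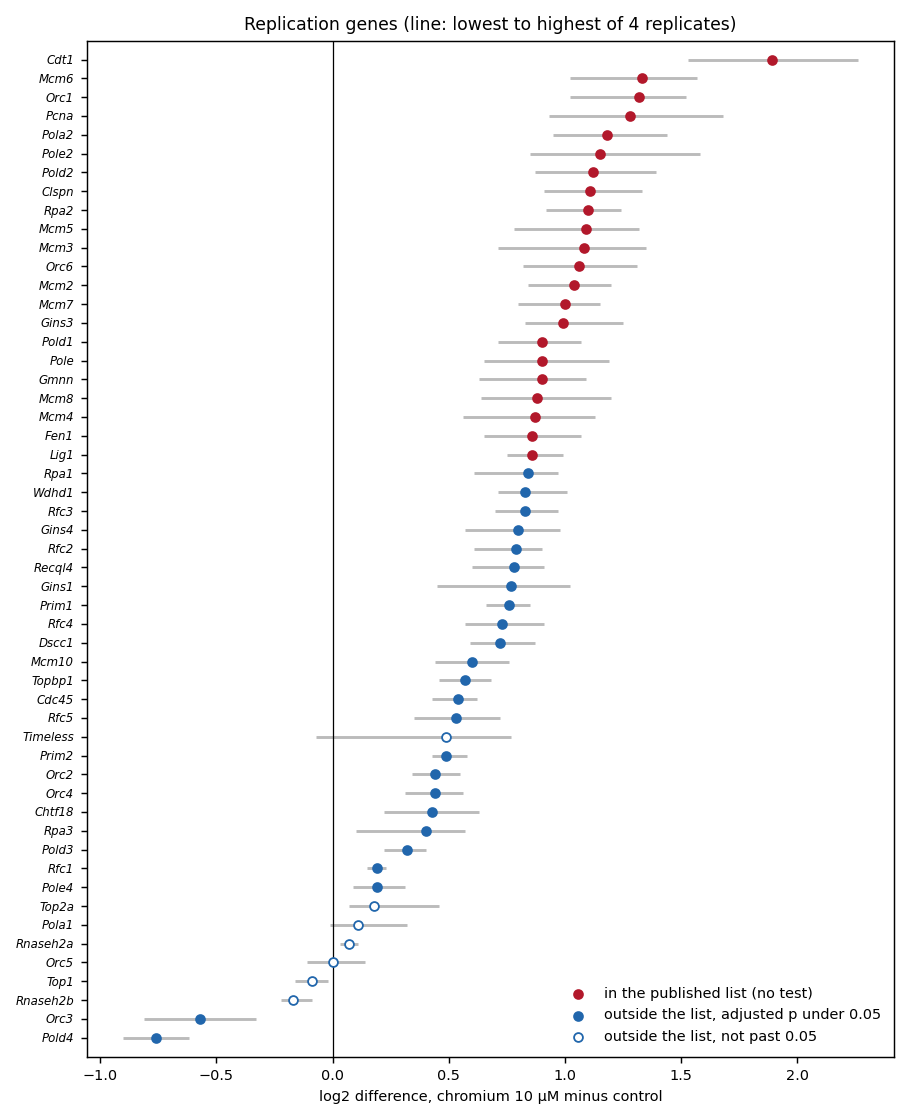
Difference between chromium 10 µM and control (log2) for each of the 53 tested genes of the replication lists, as the mean of 4 replicates (point) with the lowest and highest replicate (line). Red points are in the published list and carry no test. Filled blue points passed an adjusted p of 0.05 in limma: 22 rose, while Orc3 and Pold4 fell, at the bottom. Of the 22, 3 (Gins1, Recql4 and Chtf18) did not have all controls above the filter level, so their calls lean on the filter. With a filter on the mean of all arrays 20 of 29 rose.

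Genes that pack new DNA and those that prepare S phase rose for the most part. Among chromatin assembly and DNA methylation genes, 13 of 14 were tested. Uhrf1, Chaf1b, Chaf1a and Asf1b, the 4 in the published list, were 0.95 to 1.36 above controls, and 8 of the other 9 rose while 0 fell (88.9% higher), 7 and 0 in replicates 1 and 2 alone. Hat1, which acetylates new histone H4, rose by 0.84 (limma, adjusted p = 2.3e-06), Nasp, a histone chaperone, by 0.79 (limma, adjusted p = 9.6e-06) and Dnmt1, the maintenance DNA methylase, by 0.59 (limma, adjusted p = 1e-05). Of 31 listed G1/S regulators 24 were tested, and Ccne2, E2f7, Ccne1, E2f8 and Myc, in the published list, were 0.82 to 1.49 above controls. E2f7 and E2f8 repress E2F genes. Outside the list 11 of 19 rose and 2 fell (57.9% and 10.5%), against 9 and 2 in replicates 1 and 2 alone. E2f1 stood at 8.43, 8.07, 8.59 and 8.31 in chromium 10 µM, against 7.27, 7.84 and 7.99 in controls, and rose by 0.59 ± 0.11 (limma, adjusted p = 0.00056). Its groups did not overlap, with replicate 2 only just above the highest control. Ccna2, the S phase cyclin, rose by 0.84 (limma, adjusted p = 0.00038). The members that fell were Rbl2, the pocket protein that holds E2F genes silent in resting cells, by 0.84 (limma, adjusted p = 3.3e-06), and the kinase inhibitor Cdkn1b, by 0.29 (limma, adjusted p = 0.0035). For nucleotide supply, 23 of 29 genes were tested: Rrm1, Tyms and Dck, in the published list, were 0.86 to 1.01 above controls and Dhodh, also in it, differed by -0.23, and of 19 outside the list 11 rose and 1 fell (57.9% and 5.26%), against 10 and 1 in replicates 1 and 2 alone.

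Genes of mitosis rose by less but nearly all together. Of 50 listed genes 40 were tested, only Kif22 and Spc24 of them in the published list. Of the other 38, 33 rose and 0 fell (86.8%), and in replicates 1 and 2 alone 28 and 0. The median over the 40 was 0.50, against 0.79 over the replication genes. Cdca8, a subunit of the chromosomal passenger complex, stood at 7.78, 7.51, 7.84 and 7.69 in chromium 10 µM, against 6.68, 6.92 and 7.14 in controls, and rose by 0.79 ± 0.08 (limma, adjusted p = 5e-06). The groups did not overlap. Cenpk (0.79), a kinetochore protein, and Racgap1 (0.76), which acts in cytokinesis, were next. Cdk1, the mitotic kinase, rose by 0.59 (limma, adjusted p = 0.0012), whereas its cyclin Ccnb1 differed by 0.06 (limma, adjusted p = 0.62) and Bub1 by 0.05 (limma, adjusted p = 0.57).

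Damage checkpoint genes rose for the most part, and p53 targets had calls on both sides. Of 18 tested damage checkpoint genes, Wee1, which holds Cdk1 inactive, is in the published list and stood 0.98 above controls, and 12 of the other 17 rose while 0 fell (70.6%), 10 and 0 in replicates 1 and 2 alone. Bard1 rose by 0.82 (limma, adjusted p = 4.9e-05). Its partner Brca1, with which it forms a ubiquitin ligase, stood at 6.36, 6.43, 6.70 and 6.37 in chromium 10 µM, against 5.53, 5.80 and 6.0 in controls. Not all controls were above the filter level, and the mean of all arrays was below it, so Brca1 is given with no p. Chek1, the kinase of stalled forks, rose by 0.56 (limma, adjusted p = 0.00011), while Chek2, the kinase of broken ends, differed by -0.04 (limma, adjusted p = 0.74). Of 18 tested p53 targets, 4 are in the published list. Gdf15, a secreted stress factor, stood at 9.49, 9.42, 9.89 and 10.49 in chromium 10 µM, against 7.64, 8.38 and 9.65 in controls, so that the groups overlapped. Of the other 14, 7 rose and 1 fell (50% and 7.14%), but only 4 rose without replicate 3, and 4 rose and 1 fell in replicates 1 and 2 alone. Mdm2, the ligase that degrades p53, rose by 0.68 (limma, adjusted p = 0.00026), Plk2 by 0.79 (limma, adjusted p = 9.9e-05) and Cdkn1a, the p21 kinase inhibitor, by 0.53 (limma, adjusted p = 0.015). Sesn1 fell by 0.41 (limma, adjusted p = 0.007).

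The repair pathways had smaller medians. Nucleotide excision repair, which removes bulky adducts, had 7 of 20 tested genes up and 1 down (35% and 5%) with a median of 0.15, but only 4 rose without replicate 2, 3 without replicate 3 and 3 in replicates 1 and 2 alone. Ddb2, which recognises lesions and is also in the p53 list, rose by 0.64 (limma, adjusted p = 1.8e-05), although a second probe set of the gene differed by -0.21, and Ercc5, the nuclease that cuts 3′ of the lesion, fell by 0.53 (limma, adjusted p = 6e-04). In base excision and mismatch repair 7 of 19 outside the list rose and 4 fell (36.8% and 21.1%, 6 and 3 in replicates 1 and 2 alone). Ung, which removes uracil from DNA, stood at 9.72, 9.48, 9.95 and 9.69 in chromium 10 µM, against 8.80, 8.89 and 8.97 in controls, and rose by 0.82 ± 0.07 (limma, adjusted p = 2.3e-06). The members that fell were Msh3 (-0.65), Neil1 (-0.60), Xrcc1 (-0.46) and Mpg (-0.33), while Msh6, which shares its partner with Msh3, rose by 0.59 (limma, adjusted p = 0.013). In recombination, the Fanconi pathway and end joining 9 of 21 rose and 2 fell (42.9% and 9.52%, 8 and 2 in replicates 1 and 2 alone). Blm, a helicase that dissolves crossed strands, rose by 0.79 (limma, adjusted p = 8.6e-06), whereas Prkdc, the kinase of end joining, fell by 0.51 (limma, adjusted p = 0.00048).

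Mt2A, which binds zinc and cadmium, stood at 8.77, 8.73, 8.94 and 8.48 in chromium 10 µM, against 7.02, 7.24 and 7.50 in controls, 2.83-fold higher. The groups did not overlap. The zinc exporter Slc30a1, another target of MTF1, stood at 7.51, 7.33, 7.57 and 7.05 in chromium 10 µM, against 6.18, 6.76 and 6.92 in controls. It was also without overlap, with replicate 4 the lowest chromium array. The zinc importers Slc39a4 and Slc39a10 had log2 changes of -0.81 and -0.65. Outside the published list 1 of 14 zinc genes rose and 2 fell (7.14% and 14.3%, both below the background shares), and in replicates 1 and 2 alone 0 rose and 1 fell, while 2 rose without replicate 4 and 1 fell without replicate 1 or 3. Slc39a11, a zinc carrier, fell by 0.84 (limma, adjusted p = 6.2e-05), and Mtf1 rose by 0.24 (limma, adjusted p = 0.0051). Of 16 listed sulfate and other anion carriers, the family through which chromate passes, only 5 were above the filter. Of the 3 outside the list 0 rose and 0 fell in limma, by an adjusted p that was 0.12 or more for each, and Slc4a2 and Slc13a4 in the list had log2 changes of -0.53 and -0.27.

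NRF2 targets were higher for the most part. Of 36 listed genes 30 were tested, and the 11 in the published list were 0.05 to 1.42 above controls. Hmox1, which breaks down heme, stood at 9.23, 9.02, 9.92 and 9.66 in chromium 10 µM, against 8.05, 8.34 and 8.86 in controls. Its levels were higher in replicates 3 and 4 than in 1 and 2 in both groups, and the groups did not overlap. Akr1b8, an aldehyde reductase, differed by 1.42, the most of the list. Slc7a11, the cystine importer for glutathione synthesis, stood at 7.75, 7.55, 6.20 and 6.01 in chromium 10 µM, against 4.82, 5.62 and 6.67 in controls, so that the groups overlapped although the change within replicates averaged 1.16. Outside the list 10 of 19 rose and 2 fell (52.6% and 10.5%), and in replicates 1 and 2 alone 8 and 1. Srxn1, which restores oxidised peroxiredoxins, rose by 0.80 (limma, adjusted p = 1.8e-06). Sqstm1, an autophagy receptor, stood at 12.54, 12.61, 12.58 and 12.56 in chromium 10 µM, against 11.83, 11.87 and 12.04 in controls, and rose by 0.67 ± 0.06 (limma, adjusted p = 2.8e-06). Its chromium arrays lay close together, and all were above the highest control. The exporter Abcc1 differed by 0.05, and the glutathione transferase Gstm2 fell by 0.53 (limma, adjusted p = 0.00031). The enzymes that remove hydrogen peroxide and superoxide showed little: of 17 outside the list 2 rose and 2 fell (11.8% each), 0 and 1 without replicate 3, 1 and 1 without replicate 1, 2 and 1 without replicate 2 and 1 and 2 in replicates 1 and 2 alone. Sod2 rose by 0.38 (limma, adjusted p = 0.03) and Gpx3 fell by 0.38 (limma, adjusted p = 0.0014), with Cat at 0.02 and Sod1 at 0.01.

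On the lower side, secreted liver proteins and enzymes of liver metabolism led. Mug1, a murinoglobulin that traps proteases and has close copies in the rat, stood at 4.08, 4.14, 4.53 and 4.27 in chromium 10 µM, against 6.56, 6.83 and 7.26 in controls, 5.99-fold lower. Fabp1, the fatty acid binding protein of the liver, stood at 6.78, 6.92, 8.74 and 8.76 in chromium 10 µM, against 9.13, 10.09 and 11.40 in controls, 5.23-fold lower. Replicates 3 and 4 were higher than 1 and 2 in both groups, and no array overlapped. Itih4, an inter-alpha-trypsin inhibitor chain, stood at 5.71, 5.29, 5.21 and 5.27 in chromium 10 µM, against 6.59, 7.93 and 8.52 in controls. Slc2a2, the glucose carrier of the liver, stood at 4.68, 5.03, 5.02 and 5.33 in chromium 10 µM, against 6.44, 7.32 and 7.72 in controls. Ddc, which decarboxylates aromatic amino acids, stood at 6.60, 6.62, 5.88 and 6.18 in chromium 10 µM, against 7.51, 8.53 and 8.65 in controls. C5, a complement protein, stood at 6.04, 5.96, 5.54 and 5.52 in chromium 10 µM, against 7.29, 7.62 and 7.89 in controls. None of the 6 genes had an overlap. The chromium levels of Mug1, Itih4 and Slc2a2, of C5 on 3 arrays and of Ddc on 1 lie below the filter level of 5.97, near background, where a difference may be understated. Others of the 15 largest differences downward were the growth hormone receptor Ghr (-1.73), the phospholipase Plcb1 (-1.90), Dpyd (-1.89), which breaks down pyrimidines, and Uox (-1.68), which breaks down urate.

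Of 37 listed plasma proteins 28 were tested, and the 11 in the published list were all below controls. Of the other 17, 10 fell and 0 rose (58.8% lower), in replicates 1 and 2 alone too. Cp, the copper carrier ceruloplasmin, fell by 0.88 (limma, adjusted p = 3.5e-07) and Gc, the vitamin D carrier, by 0.82 (limma, adjusted p = 0.00028). Alb differed by -0.04 (limma, adjusted p = 0.58) and Apoe by -0.08 (limma, adjusted p = 0.41). For complement and coagulation, 27 of 43 genes were tested, the 14 in the published list differed by -0.27 to -1.82, and of 13 outside it 10 fell and 2 rose (76.9% and 15.4%, 9 and 1 in replicates 1 and 2 alone). Serpinf2, the plasmin inhibitor, fell by 0.84 (limma, adjusted p = 9.2e-07) and F2, prothrombin, by 0.62 (limma, adjusted p = 3.6e-06). The 2 that rose were Fgb, a fibrinogen chain, by 0.45 (limma, adjusted p = 0.0056), and Masp2, a complement protease, by 0.37 (limma, adjusted p = 2e-04), while Fga, another fibrinogen chain, differed by -1.15.

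The catabolic pathways of the liver fell as well. Of 22 tested amino acid and glyoxylate genes outside the list, 17 fell and 0 rose (77.3%), also in replicates 1 and 2 alone. Mat1a, which makes S-adenosylmethionine in the liver, fell by 0.83 (limma, adjusted p = 2.4e-06), Bckdhb, of branched chain breakdown, by 0.83 (limma, adjusted p = 1.3e-06) and Cps1, the first step of the urea cycle, by 0.79 (limma, adjusted p = 0.00019). Hao1, the glycolate oxidase in the list, stood at 7.13, 6.79, 6.93 and 6.81 in chromium 10 µM, against 7.45, 8.05 and 8.76 in controls. Its groups did not overlap. In fatty acid binding and oxidation 15 of 21 fell and 0 rose (71.4%, 12 and 0 in replicates 1 and 2 alone), Eci1 by 0.83 (limma, adjusted p = 0.00017) and Hsd17b4, of peroxisomal oxidation, by 0.79 (limma, adjusted p = 1.4e-05). Fatty acid synthesis fell too, with 13 of 17 lower and 0 higher (76.5%, 12 and 0 in replicates 1 and 2 alone). Acss2, which makes acetyl-CoA from acetate, fell by 0.81 (limma, adjusted p = 1.3e-06) and Scd, the desaturase, by 0.70 (limma, adjusted p = 4.8e-06). In cholesterol synthesis and uptake 12 of 22 fell and 1 rose (54.5% and 4.55%), again 12 and 1 in replicates 1 and 2 alone, but 6 fell without replicate 2. Lss, which closes the sterol rings, fell by 0.81 (limma, adjusted p = 1e-05), and the member that rose was Insig2, a brake on the pathway, by 0.36 (limma, adjusted p = 0.00036). Xenobiotic enzymes had 6 of 18 lower and 1 higher (33.3% and 5.56%, 7 and 0 in replicates 1 and 2 alone), with Sult1a1, a sulfate transferase in the list, at -1.57.

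Among hepatocyte transcription factors 7 of 18 outside the list fell and 0 rose (38.9%, 8 and 0 in replicates 1 and 2 alone). Hnf4a, the nuclear receptor that many liver genes depend on, stood at 10.02, 10.07, 9.88 and 10.10 in chromium 10 µM, against 10.49, 10.61 and 10.70 in controls, and fell by 0.59 ± 0.07 (limma, adjusted p = 1.5e-05). The groups did not overlap, and the other 2 probe sets of Hnf4a differed by -0.76 and -0.74. Prox1 fell by 0.78 (limma, adjusted p = 5.8e-05) and Onecut1 by 0.71 (limma, adjusted p = 4e-04), whereas Cebpa differed by 0.09 (limma, adjusted p = 0.74) and Foxa2 by -0.08 (limma, adjusted p = 0.46).

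**Figure D3:**
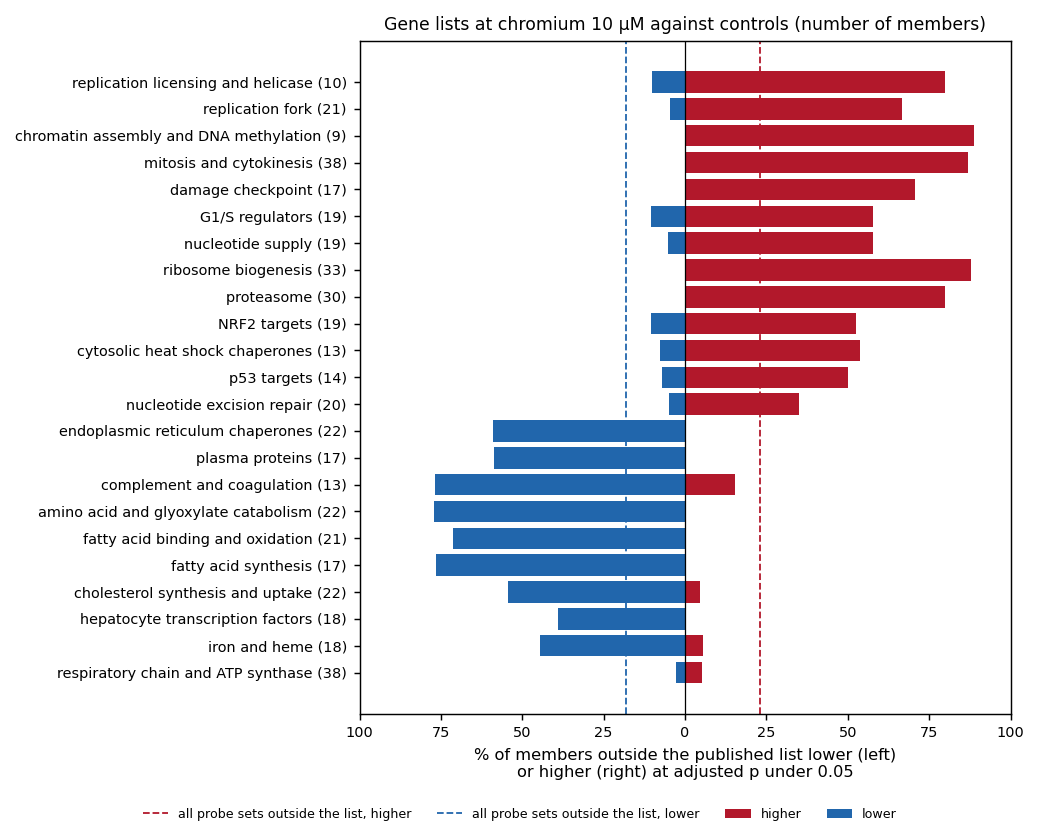
Share of the tested members of each gene list outside the published list (number in brackets) that rose (red, right) or fell (blue, left) in chromium 10 µM against control with a limma adjusted p below 0.05. The dashed lines mark the shares of all probe sets outside the list, 23.1% higher and 18.0% lower; mitosis and cytokinesis reaches 86.8% higher, and amino acid and glyoxylate catabolism 77.3% lower.

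Genes of a list labelled endoplasmic reticulum chaperones fell for the most part, while more of the listed heat shock genes rose than fell. In the endoplasmic reticulum 13 of 22 members outside the list fell and 0 rose (59.1%), against 12 and 1 in replicates 1 and 2 alone. Hspa5, the main chaperone of this compartment, stood at 11.55, 11.66, 11.33 and 11.45 in chromium 10 µM, against 12.03, 12.13 and 12.21 in controls, and fell by 0.62 ± 0.08 (limma, adjusted p = 4.6e-05). No array overlapped. Xbp1, a factor that drives such genes, fell by 0.84 (limma, adjusted p = 4.6e-05) and Pdia4, a disulfide isomerase, by 0.71 (limma, adjusted p = 2.2e-06). The members that fell also include the factor Atf6, and Sec61b, Sel1l and Edem1, which like Xbp1 are not chaperones. The list is therefore not of chaperones alone. Of the heat shock genes, a list labelled cytosolic, 7 of 13 rose and 1 fell (53.8% and 7.69%, 6 and 0 in replicates 1 and 2 alone). Those that rose include Hspd1 and Hspe1, which are mitochondrial chaperones, and the transcription factor Hsf2, so the list is not of 1 compartment. Hsf2 rose by 0.57 (limma, adjusted p = 3.6e-05) and Stip1, which links Hsp70 to Hsp90, by 0.43 (limma, adjusted p = 2.4e-05).

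Ribosome assembly and the proteasome, of which no member is in the published list, rose with small changes. Of 33 ribosome biogenesis genes 29 rose and 0 fell (87.9%, 23 and 0 in replicates 1 and 2 alone), and all 33 were above 0. Gnl3, nucleostemin, stood at 11.89, 12.05, 12.34 and 12.16 in chromium 10 µM, against 11.28, 11.40 and 11.50 in controls, and rose by 0.71 ± 0.07 (limma, adjusted p = 7.5e-06). The groups did not overlap. Ubtf, which opens ribosomal DNA for transcription, rose by 0.68 (limma, adjusted p = 6.6e-06). Of 30 proteasome subunits 24 rose and 0 fell (80%), by 0.46 at most, 19 and 0 in replicates 1 and 2 alone and 13 without replicate 3. The respiratory chain differed from these, with 2 of 38 genes higher and 1 lower (5.26% and 2.63%) and a median of 0.05. Among common reference genes Hprt1 rose by 0.42 (limma, adjusted p = 0.00096) and Tbp by 0.33 (limma, adjusted p = 0.014), while Rplp0 differed by -0.03 (limma, adjusted p = 0.78) and B2m by 0.11 (limma, adjusted p = 0.13).

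The lower concentrations of chromium had little of this. At the strict threshold 0 probe sets passed at 0.275 µM and 0 at 1 µM. At an adjusted p under 0.05 in limma it was 2 and 8, of which 0 and 2 lie outside the published list, and at an unadjusted p under 0.05 it was 1440 and 1278. 1 of the 0.275 µM arrays, of replicate 4, stood apart from its group (R2 of 0.9046, where the next had 0.9698). Without it, 0 passed at 0.275 µM and 61 at 1 µM. The counts at 10 µM also moved: outside the published list 4073 rose and 3223 fell, against 3312 and 2587. The 3 concentrations share the control arrays. Cdt1 averaged 6.91 ± 0.25 in controls, 7.0 ± 0.1 at 0.275 µM, 7.29 ± 0.12 at 1 µM and 8.8 ± 0.18 at 10 µM (SD, n = 4). Mug1 averaged 6.84 ± 0.21 in controls, 6.24 ± 0.39 at 0.275 µM, 5.84 ± 0.29 at 1 µM and 4.26 ± 0.2 at 10 µM. Both ran in 1 direction over the 4 levels, and the step to 10 µM was the widest. The median over the replication genes was 0.06 at 0.275 µM, 0.18 at 1 µM and 0.79 at 10 µM. That over the endoplasmic reticulum list was -0.06, -0.1 and -0.29.

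**Figure D4:**
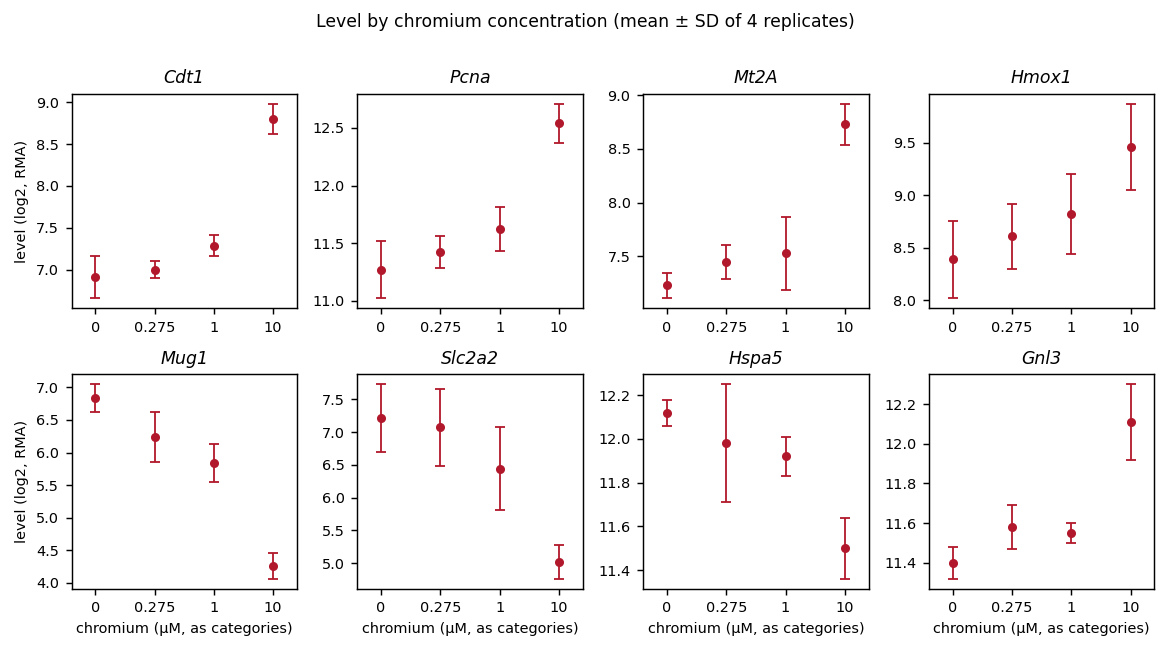
Level (log2, RMA) of 8 genes at 0, 0.275, 1 and 10 µM chromium, as the mean ± SD of 4 replicates, with the concentrations drawn as evenly spaced categories. The largest step lies between 1 and 10 µM in all 8 panels, and Mug1 at 0.275 and 1 µM (6.24 and 5.84) already lies below its control level (6.84).

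Set against the highest concentrations of the other metals, chromium 10 µM stood apart in genes of DNA copying and in the endoplasmic reticulum list. The contrasts were fitted between the exposed arrays, with all 10 conditions in 1 fit, while the differences of each metal from control share the control arrays. They cover the same probe sets, kept by their levels in control and chromium arrays alone. A probe set above the filter level only in nickel or cadmium was not tested, so the counts may lean towards higher in chromium. Of the replication genes, Gins1, Recql4 and Chtf18 did not have all controls above that level. Outside the published list, 3159 probe sets were higher (22.0%) and 3053 lower (21.3%) in chromium 10 µM than in nickel 400 µM, and 2828 were higher (19.7%) and 3261 lower (22.7%) than in cadmium 1.2 µM. Of 31 replication genes outside the list, 25 were higher in chromium than in nickel and 3 lower, and 20 were higher than in cadmium and 3 lower. The median difference from control over the 53 tested was 0.79 in chromium, -0.33 in nickel and 0.16 in cadmium. Mcm10 was 1.20 higher in chromium than in nickel (limma, adjusted p = 1.4e-14) and 0.71 higher than in cadmium (limma, adjusted p = 2.7e-09). Of 38 mitosis genes 34 were higher in chromium than in nickel and 34 than in cadmium, with 0 lower in either. Of 22 genes of the endoplasmic reticulum list, not all of them chaperones, 17 were lower in chromium than in nickel and 2 higher. In the same list 21 were lower than in cadmium and 0 higher. Hspa5 differed by -0.86 from nickel (limma, adjusted p = 2.8e-09) and by -1.10 from cadmium (limma, adjusted p = 3.3e-11).

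For Mt2A the difference from control was 1.5 in chromium, 3.76 in nickel and 5.21 in cadmium, and for Hmox1 1.06, 2.78 and 2.15. Hmox1 does not stand for the NRF2 targets, whose medians were 0.53 in chromium, 0.41 in nickel and 0.33 in cadmium. Of the 19 outside the list, 5 were higher and 6 lower in chromium than in nickel, and 7 higher and 2 lower than in cadmium. The hypoxia genes other than glycolysis had medians of 0.01 in chromium, 1.23 in nickel and -0.07 in cadmium, and of the 5 outside the list 3 fell in chromium against control, against 1 in replicates 1 and 2 alone and 1 without replicate 1, 3 or 4. Glucose uptake and glycolysis had medians of -0.06, 0.69 and -0.06, and 7 of 10 outside the list were lower in chromium than in nickel and 0 higher. Slc2a2 differed from control by -2.19 in chromium, -1.94 in nickel and 1.32 in cadmium. Ribosome biogenesis was higher in chromium than in nickel for 21 of 33 genes and than in cadmium for 19, with 0 lower in either, and the proteasome was higher than in nickel for 17 of 30 but than in cadmium for only 3. On the lower side, plasma proteins had medians of -0.68 in chromium, -0.59 in nickel and -0.5 in cadmium, and of 17 outside the list 3 were higher and 4 lower in chromium than in nickel. Amino acid and glyoxylate catabolism had medians of -0.67, -0.43 and -0.19, and 12 of 22 were lower in chromium than in cadmium and 0 higher.

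**Figure D5:**
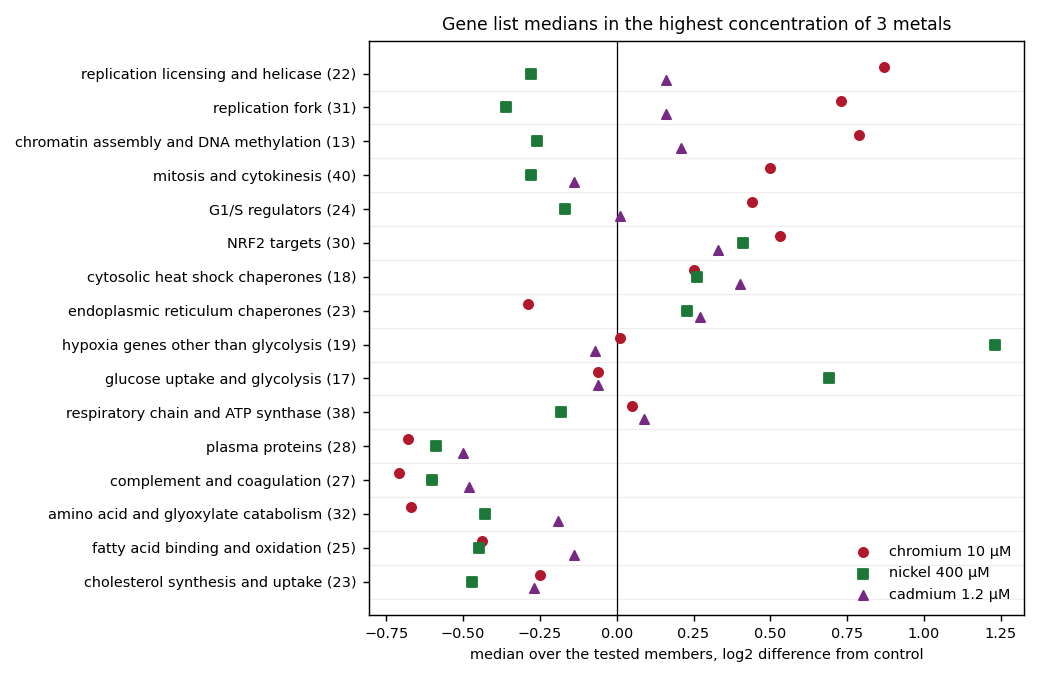
Median log2 difference from control over the tested members of 16 gene lists (number in brackets) in chromium 10 µM, nickel 400 µM and cadmium 1.2 µM, which share the control arrays. Replication licensing lies at 0.87 in chromium, -0.28 in nickel and 0.16 in cadmium, and the list labelled endoplasmic reticulum chaperones at -0.29, 0.23 and 0.27.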

How the data were processed

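The authors labelled RNA of each flask, hybridised it to an Affymetrix whole-genome rat array and made the deposited log2 values by RMA (background correction, quantile normalization and summary per probe set) in Partek, per the labels. Quantile normalization gives all arrays 1 distribution, so changes are relative to the rest of the probe sets. Detection calls were not used here. Of 31099 probe sets, 57 array controls were left out, and of the others 20826 name 1 gene, 436 several and 9780 none. Genes were named from the platform annotation, of which 20758 matched RefSeq. The filter kept 15212 probe sets, 870 of them in the published list.

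The study's methods fitted dose and a batch of experimental and processing dates. Those dates are not in the labels used here, so replicate number stood in for the batch: limma 3.58.1 (R 4.3.3) with terms for chromium concentration and replicate number, the 2 control arrays of a replicate averaged (16 samples, 9 residual degrees of freedom), and Benjamini-Hochberg adjustment. Nickel and cadmium contrasts came from 1 fit of all 10 conditions, over the same probe sets, for whose choice nickel and cadmium arrays were not used. Same-numbered chromium 10 µM and control arrays deviated together in all 4 pairs (r of 0.45 to 0.64). Across numbers, replicates 1 and 2 also went together (r of 0.33 and 0.35), as did 3 and 4 (0.13 and 0.49). These values therefore do not set 4 separate pairs apart. The labels call the replicates biological. Each gene had 1 probe set, that with the highest mean. Members, order and gene lists were chosen with earlier results of these data known, so nothing here is independent evidence for them. Named genes are the 15 largest differences in each direction without overlap, up to 4 members of each list by size, and genes the study names for chromium; others were named after their values were seen. The fit was tested on simulated data (15212 probe sets, 200 changed): 76% of 1.5-fold and 100% of 2-fold changes were recovered, with 12 false calls. The simulated noise was independent between probe sets. In the data 3635 probe sets were higher and 2965 lower at an adjusted p under 0.05, far more than 200. The simulated rates therefore do not carry over to these calls. The number of arrays limits the precision. Alternatives covered the order of the titles, replicates, controls, filter, scaling, block and variance model.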

Additional observations from a re-analysis of the deposited data

Results flagged for a closer look

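In 26 of 376 groups of values examined (6.91%), 1 array lay far from the rest of its group, by a gap to the nearest array that was large against the whole range of the group. For independent arrays with a normal spread, chance alone would mark about 1 in 20 such groups. Control arrays of the same replicate number are not independent, and the groups share arrays, so that rate does not carry over. The ratio of gap to range is given for each.

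In chromium 10 µM the array of replicate 3 was high for Pold2 (9.26, next 8.98, ratio 0.927), Lhx2 (7.02, next 6.74, 0.898) and Alas1 (9.18, next 8.97, 0.855), and low for Slc13a4 (6.23, next 6.79, 0.87). Replicate 2 was low for Fancb (6.93, next 7.01, 0.849) and Hsf2 (9.27, next 9.41, 0.84). Replicate 1 was high for Serpina1 (9.95, next 9.7, 0.894) and Itih4 (5.71, next 5.29, 0.843). Each of these arrays lies on the same side of every control array as the rest of its group, apart from Slc13a4, whose groups overlap.

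Among the controls, an array of replicate 4 was lowest for Ddc (7.51, next 8.34, ratio 0.735), Itih2 (10.32, next 10.73, 0.647), E2f7 (4.77, next 5.5, 0.643), Pzp (10.99, next 11.72, 0.633), Slc30a1 (6.18, next 6.63, 0.613), C9 (7.04, next 7.65, 0.603), Mcm6 (8.36, next 8.75, 0.573), Pole (6.73, next 7.27, 0.557), Mdc1 (6.77, next 7.27, 0.554), Racgap1 (8.82, next 9.04, 0.537) and Cyp2c23 (10.87, next 11.36, 0.535). A control array of replicate 4 was highest for Sec61b (11.28, next 10.89, 0.863), Pck1 (13.41, next 13.11, 0.678) and Gpx1 (9.01, next 8.42, 0.636). In replicate 3, 1 control array was high for Lhx2 (5.72, next 5.46, 0.666) and 1 low for Serpina3n (6.11, next 6.51, 0.55), and in replicate 2, 1 was low for Slc26a6 (6.86, next 7.11, 0.62).

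The 0.275 µM array of replicate 4 had a median R2 of 0.9046 with its group, where the next had 0.9698, a ratio of 0.959. No cause was tested for any of these arrays.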

How the results depend on the processing

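The strict counts at 10 µM and the calls outside the published list rest on the displaced order: with labels as attached, 0 probe sets were strictly higher and 0 lower, and 0 and 0 outside the list passed, as at 0.275 µM (0) and 1 µM (0). In replicates 1 and 2 alone, where both orders agree for these arrays, strict counts were 100 higher and 177 lower, with 240 of 277 among the 434 calls of the fit over 4 replicates; 0 passed at 0.275 µM and 1 at 1 µM. Replicates 3 and 4 alone gave 0 and 1 strict calls, 1448 and 1183 outside the list, and 0 and 0 at the lower concentrations. Both of these fits had 3 residual degrees of freedom.

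Leaving out 1 replicate gave 127 to 211 strictly higher and 173 to 261 strictly lower, and outside the list 2204 (without replicate 3) to 3525 higher and 1805 to 2541 lower. It gave 0 to 0 at 0.275 µM, 0 to 1 at 1 µM, 617 to 736 strict calls against nickel and 393 to 514 against cadmium. Without the replicate block, strict counts were 154 and 197, outside the list 2436 and 1748 passed, and 0 and 0 at 0.275 and 1 µM.

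The 2 and 8 calls at 0.275 and 1 µM became 78 and 93 with the 8 control arrays as separate samples, with 1 strict call at 1 µM, 0 and 5 with Control 2 alone, 0 and 16 in the fit of 10 conditions, 1 at 0.275 µM without a filter, 0 at 1 µM with a stricter filter and 4 at 0.275 µM with an intensity trend. Without the 0.275 µM array of replicate 4, chosen after seeing the data, they were 0 and 61, with 1 strict call at 1 µM, and with a filter on the mean of all arrays, also chosen after seeing the data, 0 and 5.

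Some list medians near 0 changed sign: zinc genes to -0.03 with the mean of all probe sets, and in replicates 1 and 2 alone peroxide defence to -0.03, hypoxia to -0.09 and programmed death to -0.02. Leaving out 1 replicate, peroxide defence ran from -0.02 (without replicate 3) to 0.03, glycolysis from -0.13 to 0.03 (without replicate 4), hypoxia from -0.07 (without replicate 3; -0.04 without replicate 2) to 0.02, and programmed death from -0.02 (without replicate 3) to 0.06. With labels as attached Casp12 was at 0.08, against -0.47. Without the replicate block 16 of 72 list counts fell by over 1.5 times, of which cholesterol synthesis and uptake (6 of 22 lower, against 12) was the only one with 10 or more calls. Leaving out 1 replicate also moved small counts: of xenobiotic enzymes 0 rose without replicate 1, 2 or 3, of heat shock genes 0 fell without replicate 2, 3 or 4, of complement and coagulation 1 rose without replicate 3, of immediate early genes 1 fell without replicate 2, 3 or 4, of iron and heme genes 3 rose and of glycolysis genes 2 rose without replicate 1, and of the respiratory chain 1 rose without replicate 1 or 3. Where no cause shows in how an alternative was made, the cause was not tested.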

Other observations

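Immediate early and growth signal genes, iron and heme genes, programmed death genes and cytoskeletal genes had mixed changes in chromium 10 µM against control. Of 12 tested immediate early genes outside the published list, 4 rose and 2 fell (33.3% and 16.7%): Klf10, Ier5, Nr4a2 and Dusp5 rose, by 0.61 to 1.29, while Dusp6, a phosphatase induced by ERK, fell by 0.64 (limma, adjusted p = 0.00036) and Egr1 by 0.46 (limma, adjusted p = 0.03). In the list, Fosl2 was 1.24 and Jun 0.77 above control. Of 18 iron and heme genes outside the list 8 fell and 1 rose (44.4% and 5.56%, 6 and 1 in replicates 1 and 2 alone). Alas1, which starts heme synthesis, rose by 0.53 (limma, adjusted p = 0.00013), while Ppox, a late step of it, fell by 0.59 (limma, adjusted p = 2.2e-05) and Tfrc, the transferrin receptor, by 0.27 (limma, adjusted p = 0.0045). Of 21 programmed death genes outside the list 6 rose and 3 fell (28.6% and 14.3%), but 3 rose without replicate 3, 1 fell without replicate 1 and 0 fell without the replicate block, with Casp2 0.63 higher (limma, adjusted p = 1.4e-05) and Bcl2 at -0.32 (limma, adjusted p = 0.014). Of 16 ATF4 and CHOP genes 2 rose and 3 fell (12.5% and 18.8%), but 0 rose without replicate 3 and 5 without replicate 4, 1 fell without replicate 1, and without the replicate block 0 rose and 0 fell, while Atf3 in the list stood 1.08 and Ddit3 0.51 above control. Of 19 actin cytoskeleton and adhesion genes 3 rose and 5 fell (15.8% and 26.3%), but 2 fell without replicate 1 or 2 and 0 without replicate 3. Tpm4 rose by 0.34 (limma, adjusted p = 0.0032), and the keratin Krt8 fell by 0.34 (limma, adjusted p = 0.019). Of 5 gluconeogenesis and glycogen genes 3 fell and 0 rose (60%): Pck2 and Pck1, which make phosphoenolpyruvate, by 0.73 (limma, adjusted p = 9.6e-06) and 0.66 (limma, adjusted p = 0.0017), and Ugp2 by 0.47 (limma, adjusted p = 0.00016). Of 10 glycolysis genes 1 rose and 3 fell (10% and 30%), among them Pklr, the pyruvate kinase of the liver, by 0.72 (limma, adjusted p = 7.2e-05).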
